A study of Saccharomyces cerevisiae with 59 samples.

Results

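Sequencing libraries made from 1 ng of yeast RNA were compared with libraries made from 10 ng of RNA by the same protocol. They were chosen by their titles alone and numbered 17 of the 59 libraries of the series: 8 at 1 ng and 9 at 10 ng. All of them came from the laboratory strain S288C of Saccharomyces cerevisiae, grown from a single clone, stripped of its cell wall with zymolyase to give spheroplasts and held in medium without amino acids (AAS) before bulk RNA was extracted. The labels give the length of that treatment as a range and not per library, and do not say whether the 17 libraries came from 1 RNA preparation, so the spread behind each p-value is that among the libraries alone and may be technical. The comparison addressed how far the profile read by a protocol built for single yeast cells depends on the amount of RNA put in.

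The protocol primes cDNA at the poly(A) tail with oligo-dT, adds a tail to the other end of the cDNA, amplifies the product by PCR, keeps cDNA above a minimum size on a gel and then fragments it for sequencing. No molecular identifiers are used, so the copies of a molecule are counted as separate reads. ERCC spike-ins, a set of synthetic transcripts, were added in proportion to the RNA input. In growing yeast the most abundant messages encode glycolytic enzymes and ribosomal proteins. Ribosomal proteins, histones and the small subunits of the respiratory complexes have short coding sequences, whereas multidomain enzymes, ABC transporters and chromatin remodellers have long ones, so a comparison between functional groups is also a comparison between lengths of message. Lengths below are coding lengths, without untranslated ends.

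Gene totals ranged from 423001 to 2079272 counts at 1 ng and from 290434 to 1575402 counts at 10 ng, and the spike-ins took 33.1% to 67.0% and 45.3% to 69.1% of the counts of genes and spike-ins. Replicate 9 at 1 ng had the lowest spike-in share and stood apart in its gene profile: its Spearman correlation across the genes tested with the other 1 ng libraries had a median of 0.61 over 7 pairs, against a median of 0.88 over the 21 pairs without it and 0.91 over the 36 pairs of 10 ng libraries. Replicate 5 at 10 ng stood apart from the other 10 ng libraries in the measures that depend on length. The main results are therefore also given without replicate 9 at 1 ng and replicate 5 at 10 ng, a choice made after seeing the data. Replicate 5 at 1 ng was kept in that check, although it lay near replicate 9 in several measures that depend on length. Genes under 500 nt held 2.59% of its gene counts and 1.78% of those of replicate 9, against at least 5.44% in the other 1 ng libraries. Genes of alpha cells held 0.189% to 0.443% of the counts at 1 ng and 0.343% to 0.502% at 10 ng, whereas the 7 genes specific to a cells summed to 26 counts over all 1 ng libraries and 13 over all 10 ng libraries, and 15 sporulation genes to 145 and 69. As the RNA was bulk RNA, fewer cells of a kind and less RNA per cell cannot be told apart in any value below.

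The 3 messages with the largest falls at 1 ng among well-covered genes have short coding sequences, which are shown whole because length is what the results below turn on. ATP15, the epsilon subunit of the mitochondrial ATP synthase, lies at chrXVI:30079-30267 on the plus strand. YSY6, a small protein of the secretory pathway, lies at chrII:565231-565428 on the plus strand. TSC3, a small activator of serine palmitoyltransferase in sphingolipid synthesis, lies at chrII:356324-356566 on the minus strand. All are single exons of the R64 genome, read 5′ to 3′, with the start and stop codons in capitals.
ATP15: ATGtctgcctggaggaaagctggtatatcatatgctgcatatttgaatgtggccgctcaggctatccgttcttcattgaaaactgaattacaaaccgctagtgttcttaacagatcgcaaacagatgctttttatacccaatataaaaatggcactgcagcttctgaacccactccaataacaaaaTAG
YSY6: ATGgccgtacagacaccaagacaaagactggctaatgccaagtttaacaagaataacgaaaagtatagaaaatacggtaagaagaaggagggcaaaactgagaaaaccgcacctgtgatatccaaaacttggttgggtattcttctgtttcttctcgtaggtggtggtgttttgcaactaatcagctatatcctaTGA
TSC3: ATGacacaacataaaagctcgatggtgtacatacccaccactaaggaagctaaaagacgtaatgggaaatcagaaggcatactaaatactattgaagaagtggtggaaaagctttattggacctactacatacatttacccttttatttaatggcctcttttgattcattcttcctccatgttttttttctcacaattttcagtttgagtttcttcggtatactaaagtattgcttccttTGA
They span 189, 198 and 243 nt with a GC content of 40.2%, 40.4% and 35.0%, and their longest run of A inside the coding sequence, a place where oligo-dT could also prime, is 5, 4 and 4 bases.

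Short messages were lower and long messages were higher at 1 ng than at 10 ng. Of 3927 genes with enough counts to test, 1441 (36.7%) differed at an adjusted p of 0.05 in edgeR's quasi-likelihood test, 816 (20.8%) being higher and 625 (15.9%) lower at 1 ng. Fold changes below are log2 values of 1 ng over 10 ng, given relative to the median gene, whose own value was 0.23, while the adjusted p and the SE belong to the value before that subtraction. With the size factors of DESeq2 in place of TMM scaling in edgeR the median gene stood at 0.40, and the split of calls was 1025 higher and 499 lower. Relative to the median gene, 580 of the called genes were at least 1 log2 unit higher and 524 at least 1 log2 unit lower at 1 ng.

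Coding length ordered these fold changes. The Spearman correlation of fold change with coding length was 0.75 across 3924 genes, a description over genes that share the same 17 libraries. Below 300 nt the median fold change was -1.73 (113 genes), and it was -1.50 from 300 to below 500 nt (333 genes), -0.95 from 500 to below 750 nt (515 genes) and -0.53 from 750 to below 1000 nt (562 genes). It was -0.14 from 1000 to below 1500 nt (938 genes) and 0.53 from 1500 to below 2000 nt (601 genes). Beyond 2000 nt the medians were nearly level, with 1.07 from 2000 to below 3000 nt (518 genes) and 1.09 from 3000 nt on (344 genes). Of the 446 genes under 500 nt, 265 (59.4%) were called lower and 6 (1.35%) higher, and of the 862 genes of 2000 nt or over, 474 (55.0%) were called higher and none lower at 1 ng.

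**Figure D1:**
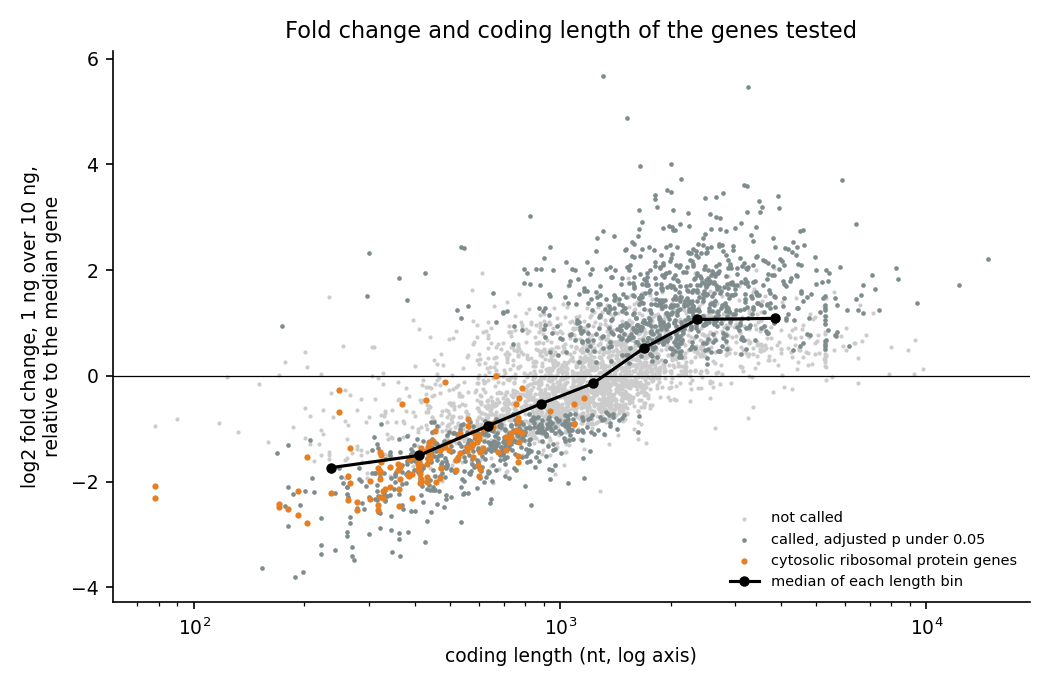
Each point is 1 of the 3924 genes tested that have a coding length; the x axis gives coding length in nt on a log axis and the y axis the log2 fold change of 1 ng over 10 ng relative to the median gene, with cytosolic ribosomal protein genes in orange and the median of each length bin as a black line. The line climbs from -1.73 below 300 nt to 1.07 at 2000 to below 3000 nt and is level beyond that.

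The same order appeared library by library, in measures that need no list of called genes. The share of gene counts in genes under 500 nt was 1.78% to 8.45% at 1 ng (median 6.31%) and 8.20% to 12.8% at 10 ng (median 11.01%). The means were 5.76% ± 2.43 (SD, n = 8) and 11.01% ± 1.37 (SD, n = 9), and the ranges met only at their edge (two-sided exact permutation test, adjusted p = 0.000494 over 4 length classes). Genes of 2000 nt or over took 6.80% ± 3.06 (SD, n = 8) at 1 ng and 2.98% ± 1.55 (SD, n = 9) at 10 ng (exact test, adjusted p = 0.00285). The class from 500 to below 1000 nt changed by -4.63 percentage points and the class from 1000 to below 2000 nt gained 6.05 points (exact test, adjusted p = 0.00708 and 0.000905). Without replicate 9 at 1 ng and replicate 5 at 10 ng the differences were -5.03 points under 500 nt and 3.48 points from 2000 nt on (exact test, adjusted p = 0.000311 for both). From 1000 nt on, all 8 of the 1 ng libraries lay above the 10 ng mean of the class.

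Detection followed the same order. With each library thinned to 290434 gene counts, 169 to 255 genes under 500 nt had at least 5 counts at 1 ng and 259 to 319.7 at 10 ng, averaged over 20 draws. The groups did not overlap (means 211 ± 29.1 and 286 ± 17.2, SD; exact test, adjusted p = 0.000165, unadjusted 4.11e-05, the smallest these groups can give). Among genes of 2000 nt or over the counts were 421 ± 187 and 218 ± 90.6 (SD; exact test, adjusted p = 0.0131). The differences of the middle classes, -20.1 genes from 500 to below 1000 nt and 171 genes from 1000 to below 2000 nt, did not pass the test (exact test, adjusted p = 0.531 and 0.0689). The second did pass without replicate 2 (198 genes) or replicate 3 at 1 ng (206) and without replicate 5 at 10 ng (203). It also passed when libraries of the same number were compared as pairs, a pairing that the labels do not give.

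**Figure D2:**
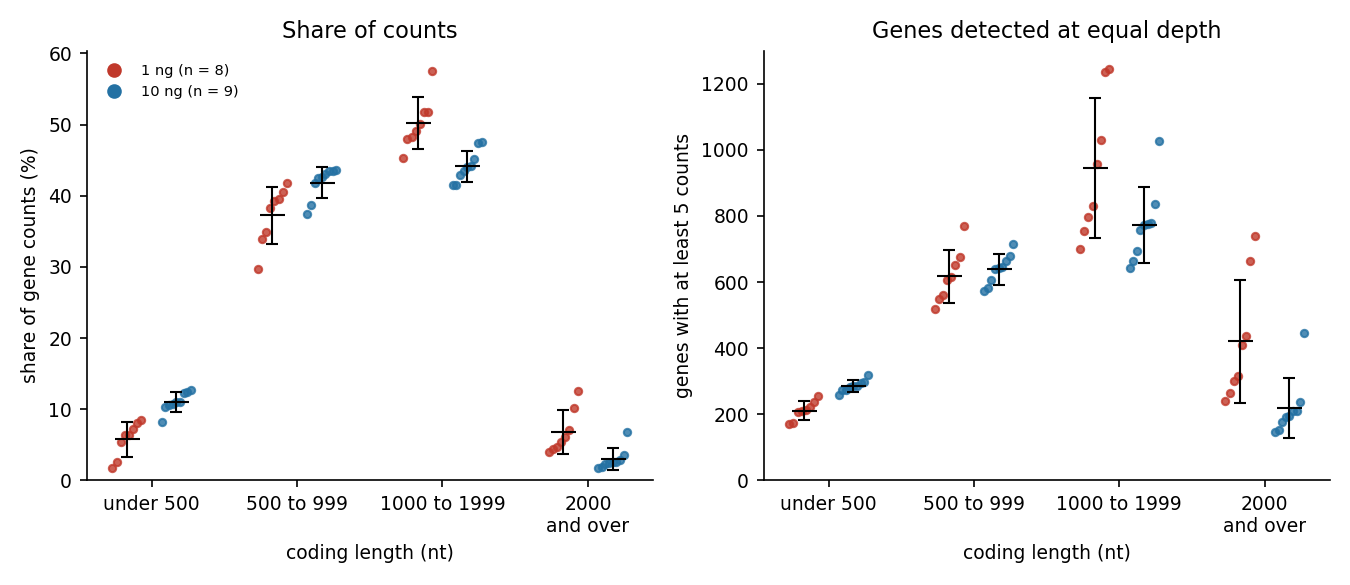
Each point is 1 library (red 1 ng, blue 10 ng), with the mean and SD of the group in black; the left panel gives the percentage of gene counts and the right panel the number of genes with at least 5 counts at equal depth, by coding length class in nt. In both panels the red mean is lower than the blue one under 500 nt and higher from 2000 nt on, where 10 ng replicate 5 lies among the red points.

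Each library can also be reduced to a slope, the change of log2(CPM + 1) per doubling of coding length after the mean over the 17 libraries is subtracted from every gene (CPM, counts per 1000000 gene counts of the library). All 8 slopes at 1 ng were above 0, from 0.03 to 1.03 (median 0.30), and the slopes at 10 ng ran from -0.58 to 0.23 (median -0.41). The subtraction sets the 0 at the mean of the 17 libraries, so only differences between libraries carry meaning. The only 10 ng slope above 0 was that of replicate 5, and the difference of the means was 0.76 log2 units per doubling (exact test, adjusted p = 0.000247). Among the ribosomal protein genes alone the difference was 0.73, and among all other genes 0.73, with the same adjusted p (0.000247, exact test) for both. Within the libraries numbered 1 to 4 the difference over all genes was 0.60 (4 against 4 libraries, adjusted exact p = 0.0286, the smallest they can give), and within those numbered above 4 it was 0.93 (4 against 5, adjusted exact p = 0.0238). Without replicate 9 at 1 ng and replicate 5 at 10 ng it was 0.74 (adjusted exact p = 0.000155).

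**Figure D3:**
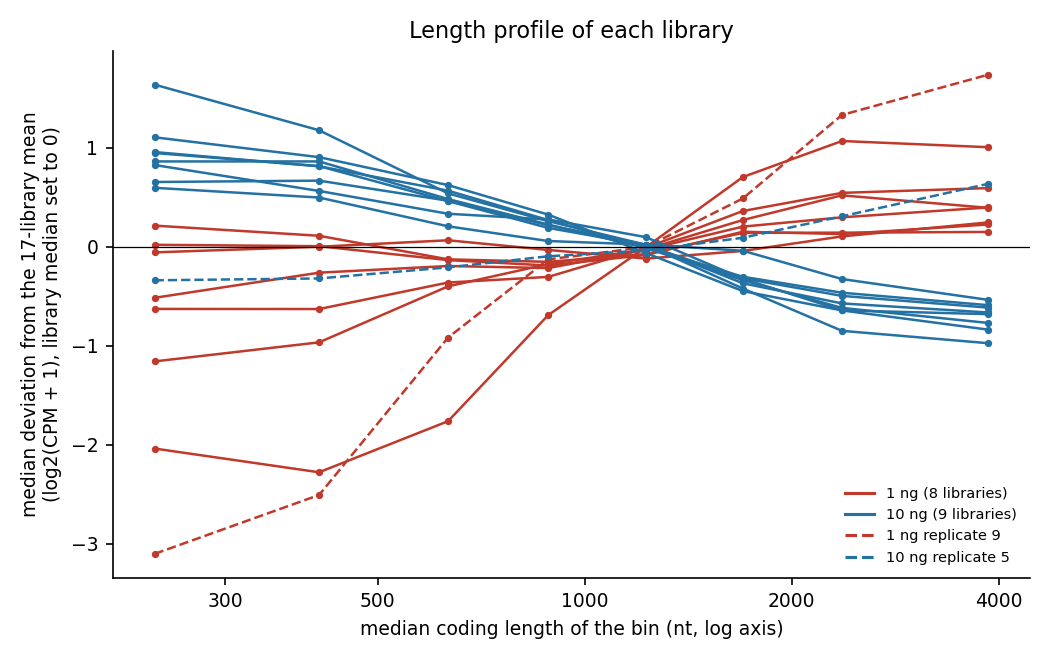
Each line is 1 library (red 1 ng, blue 10 ng; dashed, 1 ng replicate 9 and 10 ng replicate 5); the x axis gives the median coding length of 8 length bins in nt on a log axis and the y axis the median deviation of log2(CPM + 1) from the mean over the 17 libraries, with the median of each library set to 0. Relative to the mean over the 17 libraries, the 10 ng lines fall with length except that of replicate 5, and the 1 ng lines are level or rise.

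The gene by gene counts depended on which libraries were used. The libraries numbered 1 to 4 alone gave 871 calls, and those numbered above 4 alone gave 83, which became 388 when replicate 9 at 1 ng was left out. All libraries less replicate 9 at 1 ng and replicate 5 at 10 ng gave 1734 calls, 1019 higher and 715 lower. Within each amount the spread was wider at 1 ng, with a common biological coefficient of variation of 0.68 against 0.33 at 10 ng, and 0.46 at 1 ng without replicate 9. Replicate 5 of each amount stayed in these values. The coefficient was not computed for the libraries numbered 1 to 4 or above 4 alone.

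The 12 largest falls among genes with a mean log2 CPM of at least 5 all had coding lengths of 180 to 444 nt. In 7 of the 12 the 1 ng and 10 ng libraries did not overlap, beside 3.44% of all genes tested. All 135 genes tested without overlap were called genes. As the 12 were chosen among called genes for the size of their falls, the count of 7 follows largely from the choice. ATP15 had 1.44 to 28.4 CPM at 1 ng (median 17.7) and 22.9 to 227 CPM at 10 ng (median 158). The groups met at replicate 5 of 10 ng only, and the fold change was -3.81 (SE 0.56, edgeR adjusted p = 0.00021). YSY6 had medians of 7.32 and 51.0 CPM (ranges 0.481 to 14.2 and 10.2 to 86.4; fold change -3.71, edgeR adjusted p = 0.000168). TSC3 had 0 to 28.1 CPM at 1 ng and 36.8 to 149 CPM at 10 ng, with no overlap (-3.29, edgeR adjusted p = 0.000957). BOL2, which acts in the signalling of iron and sulfur cluster supply, separated completely as well, with 5.77 to 28.4 CPM against 39.4 to 94.7 CPM (-3.08, SE 0.39).

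The other 8 falls included small subunits of larger complexes. VMA10, a stalk subunit of the vacuolar proton ATPase (345 nt), had medians of 37.7 CPM at 1 ng and 219 CPM at 10 ng (-2.91). HSP10, the co-chaperonin of the mitochondrial matrix (321 nt), had 6.16 to 37.8 CPM against 50.1 to 104 CPM (-2.87), and ATP18, another small subunit of the ATP synthase (180 nt), had medians of 15.2 and 79.0 CPM (-2.85). RPS28A and RPS30B, proteins of the small ribosomal subunit (204 and 192 nt), changed by -2.77 and -2.63. SBH2, a subunit of an endoplasmic reticulum translocon (267 nt, -2.66), APS2, the small subunit of the AP-2 clathrin adaptor (444 nt, -2.58), and YHR138C (345 nt, -2.65) completed the 12. All 12 also lay below the genes nearest to them in coding length, at -0.82 to -2.12 log2 units relative to the median of the 100 tested genes nearest in length. As the 12 were chosen for the size of their falls, this position follows largely from the choice.

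The 12 largest rises had coding lengths of 1161 to 4839 nt, and 4 of the 12 had groups that did not overlap, beside 3.44% of all genes tested. These 12 were likewise chosen among called genes for size, so that count follows largely from the choice. PGK1, phosphoglycerate kinase of glycolysis (1251 nt), had 32.5 to 157 CPM at 1 ng (median 78.2) and 3.32 to 53.3 CPM at 10 ng (median 7.58), a fold change of 2.36 (SE 0.39, edgeR adjusted p = 0.000167). PGK1 is known as one of the abundant messages of growing yeast, and its counts were low at both amounts, with 2 to 13 counts in 8 of the 9 libraries at 10 ng. SAC1, a phosphoinositide phosphatase (1872 nt), had 28.7 to 144 CPM against 0 to 19.5 CPM, with no overlap (2.05, SE 0.33). PFK2, a subunit of phosphofructokinase (2880 nt), was the most abundant of the rises and separated completely, with 416 to 1337 CPM at 1 ng and 83.1 to 401 CPM at 10 ng (1.67, edgeR adjusted p = 1.6e-05). ASN1, asparagine synthetase (1719 nt), had medians of 74.7 and 13.3 CPM and no overlap (1.72), and so had SCW4, a cell wall protein related to glucanases (1161 nt, 224 and 55.2 CPM, 1.62).

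In each of the other 7 rises the highest 1 ng value was that of replicate 9, and without that library the call was lost for MIT1 only. MIT1, a transcription factor of pseudohyphal growth (2001 nt), had a highest value of 559 CPM at 1 ng but medians of 13.1 and 10.1 CPM (2.23, SE 0.67), and its call was lost in 9 of 29 alternatives. PAN1 (4443 nt) and SYP1 (2613 nt), proteins of endocytic sites, had medians of 92.6 against 33.7 CPM (1.89) and 65.8 against 16.2 CPM (1.75). NRD1, which acts in the termination of noncoding transcripts (1728 nt), had 129.7 against 41.5 CPM (1.74). TPO4, a polyamine transporter (1.97), PRY3, a secreted sterol-binding protein (1.89), and DNF2, a lipid flippase (1.55), completed the 12. No gene under 500 nt rose and no gene of 2000 nt or over fell under the same filter on level.

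**Figure D4:**
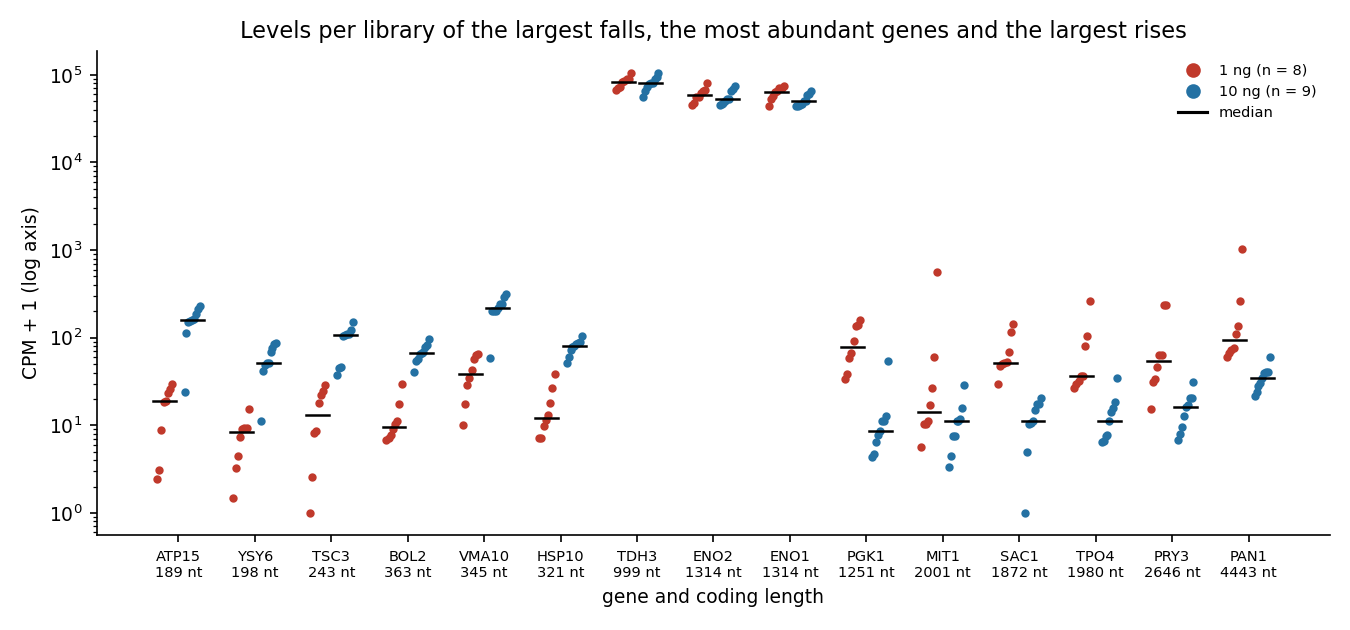
Each point is the level of a gene in 1 library (CPM + 1, log axis; red 1 ng, blue 10 ng; black bar, median) for the 6 largest falls, the 3 most abundant genes at 10 ng and the 6 largest rises, with coding lengths in nt under the names. The groups of TSC3, BOL2, HSP10 and SAC1 do not overlap, and those of TDH3, ENO2 and ENO1 do.

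None of the 10 most abundant genes at 10 ng passed the test. They have coding lengths of 744 to 1335 nt and together held 32.0% to 48.1% of the gene counts at 1 ng and 31.3% to 45.7% at 10 ng. TDH3, the main glyceraldehyde-3-phosphate dehydrogenase, had 67908 to 104174 CPM at 1 ng and 56203 to 105591 CPM at 10 ng (-0.40, edgeR adjusted p = 0.657). The enolases ENO2 and ENO1 (-0.33 and -0.16), the mutase GPM1 (-0.51) and MET17, which fixes sulfide in the synthesis of homocysteine (-0.03), overlapped between the amounts in the same way. The TDH and ENO copies are alike in sequence, so the split of uniquely mapped reads among them is uncertain. Over all 24 tested genes of glycolysis and ethanol formation, 5 were called higher, the same share as over all genes (20.8%), and none lower, and their median fold change was -0.21, against -0.13 for genes of their lengths.

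Cytosolic ribosomal protein genes, whose products build the ribosome with its RNAs, were mostly lower at 1 ng. Of 135 tested, 115 were called lower and none higher, beside 15.9% called lower over all genes. Their counts summed to 2.46% to 6.34% of a library at 1 ng and to 7.02% to 10.2% at 10 ng, and the groups did not overlap. The median fold change was -1.51 for the large subunit and -1.61 for the small subunit, and genes of the same coding lengths had medians of -1.34 and -1.41. What remained after matching on length was -0.20 and -0.26, and 63 of 80 and 45 of 55 genes lay below their length neighbours. Neighbours of one subunit could include genes of the other. With all ribosomal protein genes left out of the neighbours, the remainder was -0.28, and 114 of the 135 genes lay below. Called lower were 88.9% of them below 300 nt, 90.9% from 300 to below 500 nt and 86.7% from 500 to below 700 nt. Other genes of these lengths had 45.3%, 54.7% and 35.3%, at lower levels (median log2 CPM of 3.67, 4.29 and 4.70 against 6.65, 8.31 and 8.79). Many ribosomal protein genes come in near-identical pairs, whose uniquely mapped counts are uncertain.

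Length also ordered the ribosomal protein genes among themselves. The 18 genes below 300 nt had a median fold change of -2.26, the 66 from 300 to below 500 nt -1.74, the 30 from 500 to below 700 nt -1.31 and the 21 of 700 nt or over -1.02. RPL43B (279 nt) had the largest fall of the large subunit, from a median of 632 CPM at 10 ng to 146 CPM at 1 ng with no overlap (-2.54, SE 0.45). RPL5 (894 nt) and RPL3 (1164 nt), the most abundant members, had -0.54 and -0.41 and did not pass (edgeR adjusted p = 0.308 and 0.466). In the small subunit RPS31, which is made as a fusion with ubiquitin (459 nt), fell from a median of 3304 to 1053 CPM (-2.00). The lowest value of RPS31, 61.6 CPM, was that of replicate 9 at 1 ng.

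Other groups with many short messages had negative medians, and their counts of lower members are to be read against 15.9% called lower and 20.8% higher over all genes. Of 10 tested histone genes 8 were called lower, with a median of -1.48 that became 0.06 after matching on length. HHT2, a gene for histone H3 (411 nt), fell from a median of 1698 to 807 CPM (-1.48), 0.07 log2 units from its length neighbours. Ubiquitin and small ubiquitin-like proteins had 6 of 10 lower and went from -1.73 to 0.02. Among the 6 were the ribosomal protein genes RPS31, RPL40A and RPL40B, and RPS31 also counts in the small subunit list above. The Sm and LSm proteins of RNA processing had 2 of 8 lower and went from -1.51 to 0.33. Nuclear-encoded respiratory complex subunits had 10 of 24 lower and 5 higher, with medians of -0.74 before and 0.25 after matching. For mitochondrial ribosomal proteins (13 of 62 lower, 3 higher) the values were -0.71 and -0.06.

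Subunits of one complex parted by length. In the mitochondrial ATP synthase 10 of 17 genes were lower and 1 was higher at 1 ng, beside 15.9% and 20.8% over all genes. The one that rose was ATP1, the alpha subunit and the longest of the complex here (1638 nt), with 139 to 421 CPM at 1 ng, 43.2 to 112 CPM at 10 ng and no overlap (1.47, SE 0.26, edgeR adjusted p = 0.000167). ATP4 (735 nt, -1.25) and ATP5 (639 nt, -0.94, not called without replicate 7 at 1 ng or replicate 4 at 10 ng), subunits of the stator, and STF2, which stabilizes the inhibited enzyme (255 nt, -2.02), were lower, and STF2 had no overlap (77.0 to 1057 CPM against 1377 to 2486 CPM). In the vacuolar proton ATPase 7 of 15 genes were lower and 3 higher, the latter near the share over all genes, and across its subunits fold change and length had a Spearman correlation of 0.97. In fatty acid synthesis ACB1, the acyl-CoA-binding protein (264 nt), changed by -1.91, while ACC1, acetyl-CoA carboxylase (6702 nt), rose from a median of 95.5 to 316 CPM (1.19), and the synthase genes FAS1 and FAS2 (6156 and 5664 nt) changed by 0.56 and 0.75. With a length trend removed, neither synthase gene was called and both lay below 0 (-0.28 and -0.26).

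Several groups with many long messages had positive medians. ABC and P-type transporters, with a median length of 3858 nt, had 12 of 18 called higher and none lower, beside 20.8% called higher and 15.9% lower over all genes, and a median of 0.95 that became -0.04 after matching. Amino acid permeases had 11 of 19 higher and none lower (0.85, then 0.22), among them GAP1, the general permease, with medians of 362 CPM at 1 ng and 193 CPM at 10 ng (0.54). Cell wall remodelling and synthesis enzymes, with a median length of 1455 nt and length neighbours at 0.10, had 16 of 31 higher and 2 lower (0.68, then 0.32), with FKS1, a glucan synthase subunit (5631 nt), at 1083 and 517 CPM (0.77, but -0.17 and not called with a length trend removed). Chromatin remodellers, Mediator and kinases of the phosphatidylinositol-3-kinase-like family had 19 of 43 higher and 1 lower and kept 0.44 after 0.87, but 0.03 in the libraries numbered 1 to 4. In that list the Mediator subunit gene GAL11 had no count in any 10 ng library and 1 to 37 counts in each of the 8 libraries at 1 ng. In the cell wall list SMI1, a regulator of glucan synthesis, had 2 counts in all at 10 ng and 242 at 1 ng, of which 182 came from replicate 9. GAL11 and SMI1 reached 5 counts in libraries of 1 ng only. They passed the count filter only through the amount at which they were higher.

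Some groups whose plain medians lay near 0 stood below genes of their lengths. Aminoacyl-tRNA synthetases, which charge tRNAs for translation, had a plain median of -0.00284 and lay -0.53 from their length neighbours, with 16 of 19 genes below them. That remainder was -0.18 with matching on length and level together and -0.13 in the libraries numbered 1 to 4. Of the 19, 6 were called higher and 1 lower, beside 20.8% and 15.9% over all genes, the lower one being HTS1, histidyl-tRNA synthetase (126 and 149.8 CPM as medians, -0.75, lost in 14 of 29 alternatives, among them those without replicates 3, 4, 7 or 9 at 1 ng or 2, 3 or 4 at 10 ng). GUS1, glutamyl-tRNA synthetase (2127 nt), the most abundant, had -0.13 and did not pass, and it lay -0.89 from genes of its length. Hexose transporters and glucose sensors went from -0.07 to -0.51, and heat shock proteins and chaperones from -0.08 to -0.41. Of the 10 tested hexose transporters and sensors, only 6 lay below their length neighbours, and 4 were called higher and none lower. Of the 55 tested heat shock proteins and chaperones, 35 lay below, and 6 were called higher and 6 lower. Matched on level too, the remainders of these lists were -0.08 and -0.05, and in the libraries numbered 1 to 4 they were -0.14 and -0.16. Ergosterol synthesis genes (-0.51) and proteasome subunits (-0.75) were low before matching as well and kept -0.47 and -0.41, or -0.19 and -0.14 with level matched too and -0.17 and -0.13 in the libraries numbered 1 to 4.

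Over the 32 function lists the median absolute value was 0.70 before and 0.23 after matching, and 25 lists moved toward 0. Plain medians of at least 0.5 in size were found in 20 lists, and remainders of that size in 2. The plain median of a list followed its median coding length, with a Spearman correlation of 0.91 across the lists. In no list were the length-matched levels of the 1 ng libraries separate from those of the 10 ng libraries. These remainders are descriptions without a test.

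**Figure D5:**
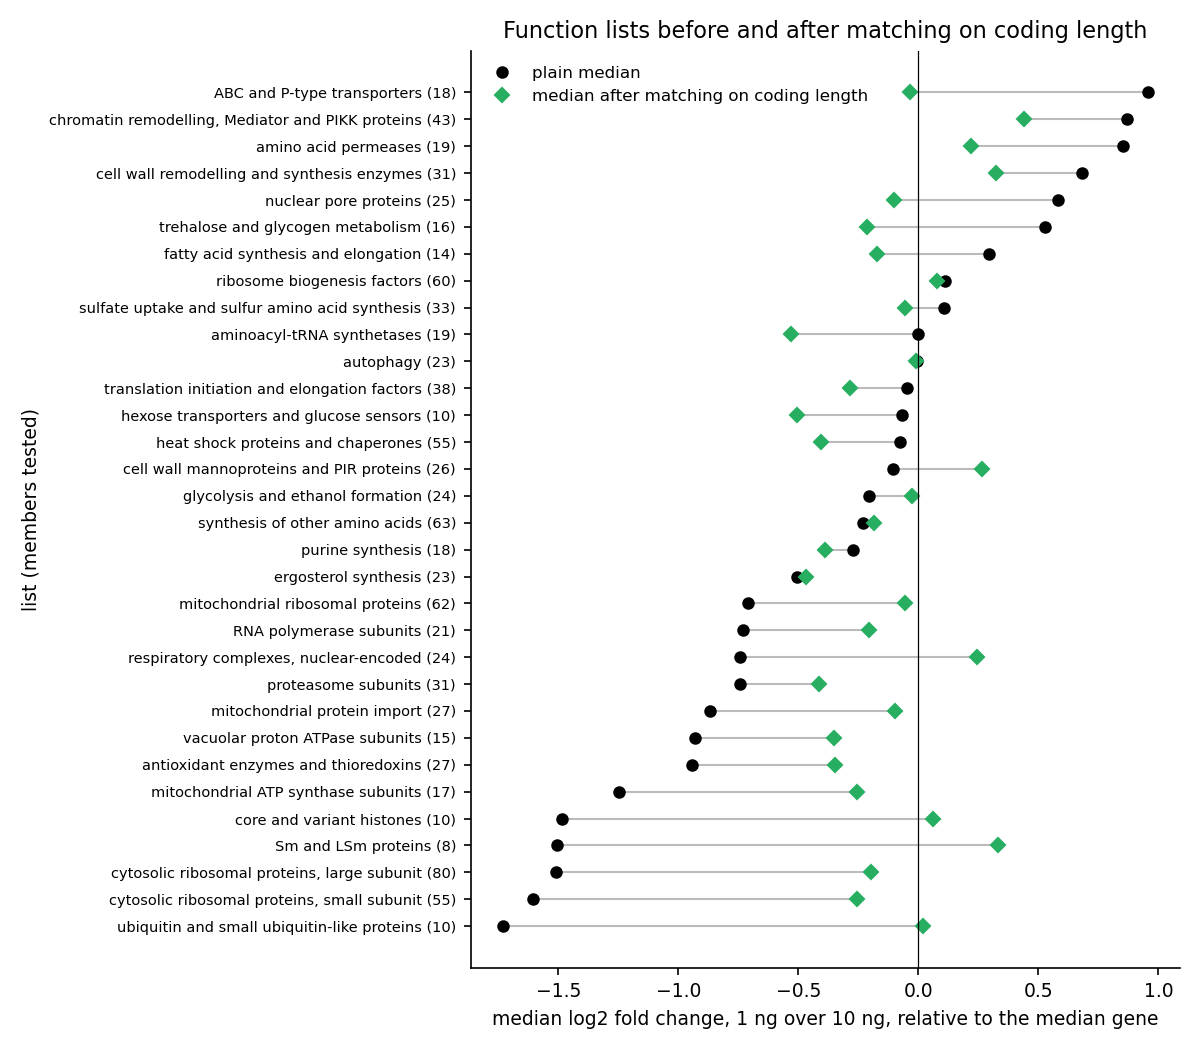
Each row is a function list with the number of members tested; the x axis gives log2 fold change of 1 ng over 10 ng relative to the median gene, the black dot is the plain median over members and the green diamond the median after the 100 tested genes nearest in coding length were subtracted. The dots span -1.73 to 0.95, and the diamonds lie between -0.53 and 0.44.

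Some single genes departed from their lengths, and those in the next sentences were chosen after their values were seen. NCE102, an eisosome protein of 522 nt, rose from a median of 31.4 to 114 CPM (1.25), 2.29 log2 units above genes of its length. PGK1 and SCW4 lay 2.47 and 1.90 above theirs, CYT1, cytochrome c1 (930 nt), 1.75, and TPI1, triose phosphate isomerase (747 nt), 1.58 (medians of 1002 and 368 CPM). IDP1, the mitochondrial NADP-dependent isocitrate dehydrogenase (1287 nt), had no overlap, with 133 to 394 CPM against 36.8 to 96.5 CPM (1.36). In the other direction DAL5, an allantoate permease of 1632 nt, was lower at 1 ng (medians of 90.3 and 144 CPM, -1.05) and lay -1.51 from genes of its length. It and HTS1 were the only genes of 1500 nt or over called lower. The 6 genes under 500 nt called higher, COX19, YER187W, YER188C-A, YLR342W-A, YMR007W and YMR103C, each had their highest count in replicate 9 at 1 ng. Their mean levels were 11.6 to 19.8 CPM at 1 ng, 2.45 to 14.4 CPM without that library, and 1.57 to 5.10 CPM at 10 ng. The calls of YER187W and YLR342W-A were lost without replicate 9 at 1 ng, and that of YMR007W without replicate 5 at 1 ng or 6 at 10 ng. YER188C-A had 237 counts in replicate 9 at 1 ng and too few counts to be tested without that library. Its call was also lost without replicate 1 or 10 at 10 ng. YLR342W-A was also lost without replicate 1 or 3 at 1 ng or 1, 3, 9 or 10 at 10 ng.

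Base composition and level were weaker companions of fold change. GC content had a Spearman correlation of -0.05 with fold change and of 0.24 with the length-matched difference. Among genes of 500 to below 1000 nt, those above the class median in GC had a median difference of 0.23 (537 genes) and the others -0.17 (540 genes). The longest run of A in the coding sequence had 0.34 with fold change, a property that rises with length, and -0.04 with the length-matched difference. Mean level had -0.35 and -0.29, with less abundant genes higher at 1 ng. Low genes could pass the count filter through the libraries of 1 amount alone. The deepest library was one of 1 ng, with 2079272 gene counts against at most 1575402 at 10 ng. How far the filter shapes the relation with level was not tested. These correlations and medians are descriptions across the 3924 genes with a coding length, and the part of composition and level in the length order was not tested.

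Taking 5 counts as detection, 2 genes were detected in every library of one amount and in none of the other. SEM1, a small subunit of the proteasome lid (270 nt), had 9 to 26 counts in every 10 ng library and 0 to 4 at 1 ng, and TOM5, a small subunit of the translocase of the mitochondrial outer membrane (153 nt), had 6 to 31 counts at 10 ng and 0 to 4 at 1 ng. Both had at least 5 counts in all 9 of the 10 ng libraries and were below 5 counts in all 8 of the 1 ng libraries. No gene did the reverse, and 1450 genes had at least 5 counts in all 17 libraries.

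Libraries of 1 ng resembled each other less than those of 10 ng. The Spearman correlation of a library with the mean of the other libraries of its amount was 0.66 to 0.91 at 1 ng (median 0.87) and 0.90 to 0.96 at 10 ng (median 0.94; exact test, p = 0.000288). The difference of the means was -0.0911, and it was -0.0345 without replicate 9 at 1 ng (exact p = 0.0445). Among the libraries numbered 1 to 4 it was -0.00214 (exact p = 0.800) and among those numbered above 4 -0.155 (exact p = 0.00794). Whether the sets of libraries differ in this was not tested. Each library also enters the means used for the other libraries of its amount. The values of an amount therefore depend on each other, and these exact p-values do not allow for that.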

How the data were processed

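The libraries were selected by title, and the members, the function lists and the tests were chosen with earlier results of these data known. The authors mapped the reads without trimming to the R64 genome with STAR 2.5.2, per the study's methods. They deposited raw counts of uniquely mapped reads per gene, from HTSeq per the submitters' processing notes. The study's methods give the counting tool by citation only (RSEM 1.2.31, named there, made values not used here). Spike-ins and the 5 summary items of the counter were left out of library totals; the latter took 2.84% to 7.14% of all counts. The 5 libraries whose labels give no amount entered no comparison. Of 6420 genes listed, 6061 were matched to the R64 annotation and 5980 had a coding length; the annotation holds no untranslated ends.

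Testing covered genes that reached 5 counts in 20% of the 17 libraries and was done with edgeR 4.0.16 (R 4.3.3; TMM scaling, quasi-likelihood F test, Benjamini-Hochberg threshold of 0.05), and the script was tested on simulated counts. No covariate was used. Library measures were compared with two-sided exact permutation tests over all assignments of 8 and 9 libraries (scipy 1.17.1), adjusted over the measures of a family. Length matching subtracted the median of the 100 tested genes nearest in coding length outside the list. The genes named were the 12 largest rises and falls among called genes whose relative log2 fold change reached 1, whose average level reached 5 in log2 CPM and which had 5 counts in 80% of the libraries of the higher amount; the largest changes of short genes that rose and long genes that fell; the 10 most abundant genes; the 3 most abundant and the most changed members of the lists; and genes detected in one amount only. Exceptions are stated.

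Depth limits low genes most, and without molecular identifiers counts of PCR copies are not independent molecules. The kit does not mark strand, so reads of overlapping antisense genes cannot be told apart. Alternatives were DESeq2 1.42.0, its size factors, no filter, detected genes as a covariate, a length correction, a replicate block, each library left out, sets of libraries by number, equal depth, other pseudocounts and other matching; those that leave out 1 ng replicate 9 and 10 ng replicate 5 together, or use the libraries numbered above 4 less replicate 9, were added after seeing the data.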

Additional observations from a re-analysis of the deposited data

Results flagged for a closer look

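In 24 groups of libraries, 7 values lay far from the rest of their group by Dixon's criterion, which chance alone meets in about 1 group in 20. The groups hold related measures of the same libraries, so the 7 values are not independent and their number cannot be set against that rate. Replicate 5 at 10 ng was the highest of its group in 5 of them: the share of counts in genes of 2000 nt or over was 6.85% (next 3.56%), genes of that class detected at equal depth numbered 447 (next 237), and the length slope was 0.23 over all genes (next -0.28), 0.0811 over ribosomal protein genes (next -0.28) and 0.22 over the other genes (next -0.26). Replicate 9 at 1 ng had the steepest slope over ribosomal protein genes, 1.77 (next 0.55), and the lowest agreement with its group, 0.663 (next 0.822).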

How the results depend on the processing

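Calls numbered 1173 to 1627 when single libraries were left out (634 to 957 higher, 391 to 691 lower; 391 lower without replicate 4 at 10 ng). They numbered 1524 with DESeq2 size factors, 1541 (DESeq2 test) and 1601 without the filter. With detected genes as a covariate there were 980 (449 higher), at equal depth 952 (389 lower), with the length correction 401 (247 higher, 154 lower). The libraries numbered 1 to 4 gave 871 (451 higher), those above 4 gave 83 (57 higher, 26 lower), those above 4 less 1 ng replicate 9 gave 388 (200 higher, 188 lower), and the set less that library and 10 ng replicate 5 gave 1734; both sets that leave libraries out were chosen after seeing the data. The causes were not tested, except that the length correction removes differences that follow length by construction.

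The labels do not say that replicate numbers pair the libraries, and the data gave a partial hint. Deviations of same-numbered libraries correlated at -0.00387 to 0.549 across the 8 shared numbers, above 0.1 in 6 of them. Numbers 1 to 5 matched their own number best, and 7, 9 and 10 matched another better, so the numbers were not taken as pairs. The replicate block gave 1349 calls, 337 with the length correction too (140 higher, 197 lower), and a difference of 172 in detected genes of 1000 to below 2000 nt (exact p = 0.0104).

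Shares of counts without single libraries differed by -5.63 to -4.68 points under 500 nt, -5.29 to -3.55 from 500 to below 1000 nt, 5.00 to 6.75 from 1000 to below 2000 nt and 3.00 to 4.31 from 2000 nt on. The 500 to below 1000 nt share missed the threshold in the libraries numbered 1 to 4 (-3.63) and above 4 (-5.63), and all classes did in those above 4 less 1 ng replicate 9 (-5.37, -4.85, 6.82 and 3.40). Detected genes without single libraries differed by -81.1 to -68.9, -41.5 to -5.81, 128 to 206 and 157 to 231 in the same order. Under 500 nt the threshold was missed in the libraries numbered 1 to 4 (-57.1) and above 4 less 1 ng replicate 9 (-81.9), and from 2000 nt on in both (125 and 222) and above 4 (288). From 1000 to below 2000 nt it was passed with at least 1 count (163), less both libraries (159.97), and without replicate 2 (198) or 3 (206) at 1 ng or replicate 5 at 10 ng (203). Without single libraries the differences in slope ran from 0.67 to 0.83 over all genes, 0.53 to 0.79 in ribosomal protein genes and 0.64 to 0.80 in the others; the difference in agreement ran from -0.109 to -0.0345, and it was -0.00214 in the libraries numbered 1 to 4. The correlation of fold change with length was 0.70 to 0.80 wherever length was not corrected for.

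Beside the length-matched medians given above for level matching and libraries 1 to 4, Sm and LSm proteins moved to -0.19 and ubiquitin-like proteins to -0.22 with level matched too, and in the libraries numbered above 4 ubiquitin-like proteins moved to -0.47, ATP synthase subunits to -0.56 and cell wall remodelling enzymes to 0.04. The trehalose and glycogen list changed sign when matched on length and level (0.21) and in the libraries numbered 1 to 4 (0.0278). With the length correction, without and with the block, GPH1 stood at -0.33 and -0.51, FKS1 at -0.17 and -0.15, RPN2 at -0.37 and -0.23, FAS1 at -0.28 and -0.37, FAS2 at -0.26 and -0.26, PMA1 at -0.34 and -0.39, SPF1 at -0.16 and -0.0928 and SPT16 at -0.30 and -0.33. In the libraries numbered above 4, GPH1 stood at -0.21 and FAS1 at -0.0555. Less both libraries PGM2 stood at 0.21, UGP1 at 0.17 (0.00402 in the DESeq2 test) and HXT2 at 0.31 (-0.105 to 0.227 without single libraries, the highest without replicate 5 at 10 ng).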

Other observations

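The spike-ins themselves differed between the amounts when fitted alone, a fit added after seeing the data: of 56 spike-in transcripts tested in edgeR, 13 were higher and 17 lower at 1 ng at an adjusted p of 0.05, and 13 and 18 without replicate 9 at 1 ng. The share of gene counts in genes under 500 nt was 4.96% in the libraries of 5 pg (n = 10), 4.72% at 10 pg (n = 10), 3.44% at 20 pg (n = 10) and 1.95% at 100 pg (n = 7), beside 5.76% at 1 ng and 11.01% at 10 ng, so the share did not follow the amount in order. The SDs within these amounts ran from 1.16 to 2.43 percentage points, and the differences among them were not tested.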
